A study of Homo sapiens with 9 samples.

Results

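The genes described here were 51 genes of the lysosome, chosen by name from the 61544 genes of the count files. They comprised 13 peptidases, 10 glycosidases, 4 sulfatases, 7 lipid hydrolases and activators, 2 other luminal proteins, 7 membrane proteins, 6 subunits of the proton pump and the transcription factors TFEB and TFE3. A filter on low counts left 50 of them among 14727 tested genes. Cathepsin S (CTSS) did not pass, with 1, 1 and 2 reads in the VEH libraries, 9, 10 and 9 in SLO 1/2 and 7, 4 and 2 in SLO.

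The lysosome is the acidic compartment in which cells break down proteins, sugar chains and lipids taken up from outside or delivered by autophagy. Its hydrolases are made in the endoplasmic reticulum, carried there by mannose 6-phosphate and sortilin receptors, and work at the low pH that a proton pump, the V-ATPase, keeps up across the membrane. Many of the genes share a short promoter element, the CLEAR motif, which TFEB, TFE3 and MITF bind, and the kinase mTORC1 keeps TFEB and TFE3 out of the nucleus when nutrients are plentiful. In microglia, the phagocytes of the brain, lysosomes digest engulfed debris, and the β-galactosidase stain used to mark senescent cells reads the product of GLB1.

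RNA was sequenced from HMC3, a human microglial cell line immortalized with SV40 T antigen and labelled wild type, after 6 days in 1 of 3 conditions with 3 libraries each. VEH cells received DMSO. SLO 1/2 cells received SBI-0206965 at 5 µM, O-151 at 0.5 µM and Lopinavir at 0.5 µM, and SLO cells, labelled SLO 1, received 10, 1 and 1 µM. SBI-0206965 inhibits the autophagy kinase ULK1, O-151 inhibits the DNA repair enzyme OGG1, and Lopinavir is an HIV protease inhibitor that also blocks lamin A maturation. The 3 compounds were always given together, so no value here belongs to any of them alone, and both doses were compared with the same VEH libraries. No source used here says whether the 3 libraries of a group came from separate cultures, so p-values measure only the spread between these libraries, which may be technical.

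The libraries held 14834295 to 19674841 reads on genes. The share of reads on mitochondrial genes moved with the groups, from 1.30 to 1.61% in VEH to 2.30 to 2.86% in SLO 1/2 and 2.51 to 3.12% in SLO. Of 14 markers of microglia and macrophages, 12 stayed below 1 TPM, a length-corrected share of transcripts, in every library, and P2RY12, TYROBP, C1QA and C1QB were at 0 throughout. The summed level of the 14 ran from 2.585 to 4.065 TPM in VEH, 5.829 to 8.659 TPM in SLO 1/2 and 7.068 to 8.70 TPM in SLO. Summed markers of fibroblasts and pericytes, of which COL1A1 and VIM were the most abundant, ran from 3177 to 3319, 3602 to 3664 and 3609 to 3776 TPM, with 3 of the 10 below 1 TPM in every library. Single markers went both ways in SLO, where COL1A1 and ACTA2 were higher (ACTA2 from a mean of 4.26 TPM in VEH to 72.2 TPM) and VIM and PDGFRB lower. Summed astrocyte markers ran from 3.798 to 5.195, 7.51 to 7.563 and 8.808 to 9.328 TPM over 5 genes with AQP4 at 0 throughout, and summed neuron markers from 3.995 to 4.383, 6.161 to 6.915 and 8.105 to 9.104 TPM over 5 genes. The part of these shifts in the results below was not tested.

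Most of the lysosomal genes rose with treatment. In SLO against VEH, 35 of the 50 tested genes were higher and 3 were lower by edgeR's quasi-likelihood test with Benjamini-Hochberg adjustment over all tested genes at a threshold of 0.05, where 64.9% of all tested genes were called, 32.9% higher and 32.1% lower. The libraries of the groups did not overlap for 37 genes higher in SLO, beside 33.7% of all tested genes, and for 34 higher in SLO 1/2, beside 30%. The median log2 fold change of the lysosomal genes was 0.55, a 1.46-fold rise, with quartiles at 0.14 and 0.78, beside 0.014 for all tested genes. Rises above 1.5-fold were called for 23 of the 50, against 17.3% of all tested genes, and rises above 2-fold for 8 of them, against 9.61%. These 8 were NEU1, IDUA, GAA, LGMN, ARSA, ASAH1, NAGLU and PSAP. In SLO 1/2 against VEH, 33 were higher and 3 lower, against 26.7% and 25.3% of all tested genes and 52% called in all, with a median log2 fold change of 0.31 beside 0.015. Of these, 7 rises were above 1.5-fold, beside 11.5% of all tested genes, and none was above 2-fold, beside 6.37%. In bulk samples a change in RNA per cell and a change in the make-up of the cells cannot be told apart.

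**Figure D1:**
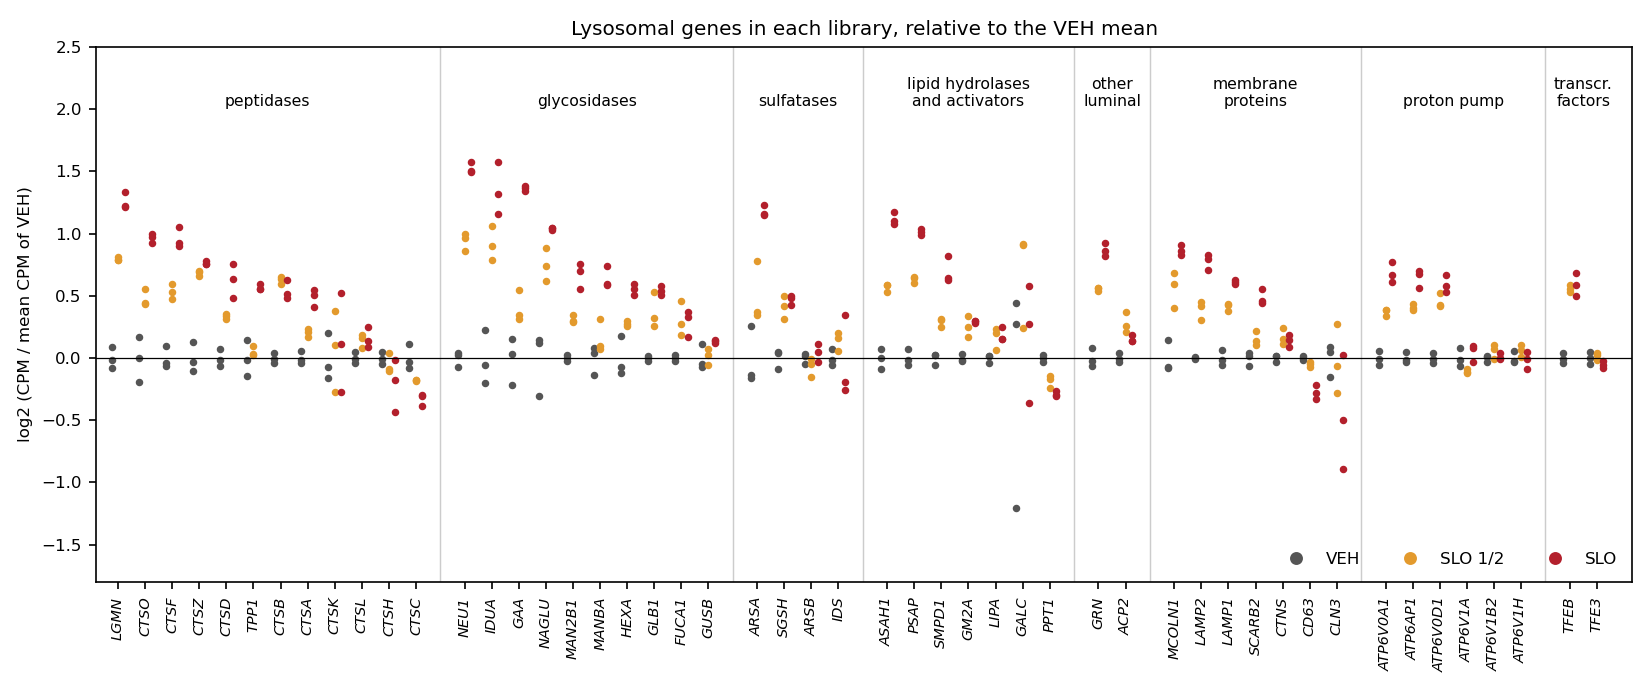
Each point is 1 library, and the vertical axis is the log2 ratio of its CPM (reads on the gene scaled to library size) to the mean CPM of VEH for each of the 50 tested lysosomal genes, grouped by role and ordered by fold change in SLO. Most SLO points lie above the SLO 1/2 points, which lie above VEH, and CTSC, PPT1 and CD63 are the genes called lower in SLO.

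The direct comparison of the doses called 26 of the 50 higher in SLO than in SLO 1/2 and 3 lower (CTSC, PPT1 and CD63), beside 20.8% and 20.3% of all tested genes and 41.1% called in all, with a median log2 difference of 0.16 beside -0.0014. Without SLO replicate 2 only CD63 of these 3 stayed lower, and the call of PPT1 was also lost without SLO 1/2 replicate 1 or 3 or SLO replicate 3. PPT1 was lost as well by DESeq2, with DESeq2 size factors, by library size alone and without a filter. On the TPM scale both CTSC and PPT1 were lost. The rise between doses was above 1.5-fold for GAA, NEU1 and ARSA, beside 4.9% of all tested genes. A graded rise, called in each dose against VEH and again between the doses, was found for 23 genes (9.97% of all tested genes). Another 9 genes rose at both doses with no call between them (11.1% of all tested genes): CTSB, CTSL, CTSZ, FUCA1, NAGLU, SGSH, LIPA, GM2A and TFEB. The libraries of NAGLU did not overlap between the doses, with a 95% interval of the log2 difference from 0.049 to 0.534. It was called between them by library size alone, with only the 2 groups compared, and without VEH replicate 3 or SLO 1/2 replicate 3. TPP1, GUSB and MANBA were called higher in SLO and not in SLO 1/2, and ACP2 in SLO 1/2 and not in SLO. Of all tested genes, 32.9% were higher in SLO, 26.7% in SLO 1/2 and 22.2% at both doses. MANBA was near a call in SLO 1/2, with a 95% interval from -0.007 to 0.328, and was called there by library size alone. At neither dose was a call made for 10 genes (27.4% of all tested genes), namely CTSH, CTSK, ARSB, IDS, GALC, CTNS, CLN3, ATP6V1B2, ATP6V1H and TFE3. CTSC and PPT1 were lower at both doses, beside 21.3% of all tested genes, and none of the 50 was called in opposite directions at the 2 doses, beside 0.937% of all tested genes.

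**Figure D2:**
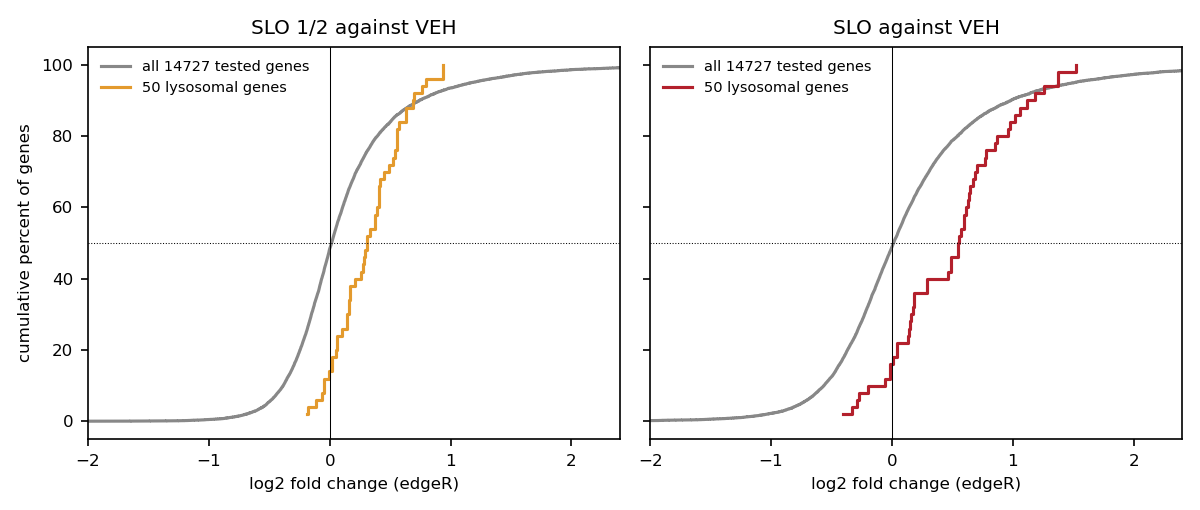
Cumulative percent of genes (vertical axis) against the log2 fold change over VEH (horizontal axis) for SLO 1/2 and SLO, with the 50 lysosomal genes in colour and all 14727 tested genes in grey. The lysosomal curve crosses 50% at 0.31 in SLO 1/2 and at 0.55 in SLO, while the grey curve crosses it near 0 in both, and the grey curve extends further at both ends.

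On the TPM scale deposited by the authors, which corrects for gene length, the 51 genes summed to 3426 to 3524 TPM in the VEH libraries, 4002 to 4241 TPM in SLO 1/2 and 4757 to 4989 TPM in SLO. The 3 groups did not overlap, and the group means stood in a ratio of 1, 1.20 and 1.40. The 5 most abundant genes held 53.2% of that sum in VEH and 52.6% in SLO. In VEH the order was led by CD63 at 689 ± 8.24 TPM (SD, n = 3), followed by PSAP at 602 ± 23.9, PPT1 at 210 ± 3.25, GRN at 193 ± 9.19 and LAMP1 at 150 ± 5.15 TPM, and none of these neighbours overlapped between libraries. PSAP took the first place in SLO at 1212 ± 21.6 TPM, 24.9% of the sum, while CD63 stood at 567 ± 22.9 TPM. Of the 51, 8 genes were above 100 TPM in VEH, 31 lay between 10 and 100 TPM, 9 between 1 and 10 TPM, and GALC, CLN3 and CTSS were below 1 TPM. Of the 50 pairs of neighbours in the VEH order, 26 overlapped between libraries.

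**Figure D3:**
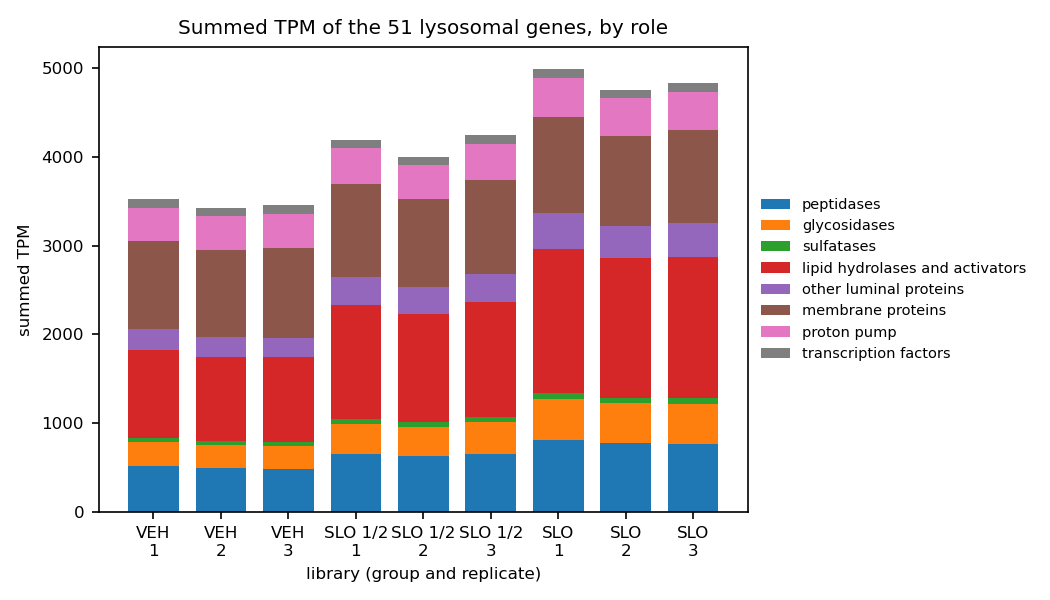
Bars show the summed TPM of the 51 lysosomal genes in each of the 9 libraries, stacked by role. The sum steps up from VEH to SLO 1/2 and to SLO, and the lipid hydrolases and activators, which include PSAP, go from a mean of 967 TPM in VEH to 1598 TPM in SLO.

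Promoters were examined because TFEB and TFE3 are among the genes and are known to bind the CLEAR motif. RefSeq start sites on GRCh38.p14 gave a promoter for 35 of the 51 genes, taken as 250 bases before the start of transcription and 50 after it. None was given for CTSB, CTSK, CTSO, CTSS, LGMN, HEXA, MANBA, NAGLU, ARSA, SGSH, ASAH1, PSAP, LAMP2, ATP6V1A, ATP6V1B2 and ATP6V1H. LGMN, ARSA, ASAH1, NAGLU and PSAP, which rose above 2-fold in SLO, are therefore outside the counts below. Where a lysosomal gene had several listed entries, as CD63 and CLN3 did, only the first was read. The comparison sets kept every distinct start site. The E-box CACGTG, which reads the same on both strands, was found in 10 of the 35 (28.6%), beside 7.26% of 35116 promoters of the same length and 9.11% of those of tested genes. Flanked by T and A, as TCACGTGA, which lies within the CLEAR motif and contains the E-box, it was found in 6 of the 35 (17.1%), beside 0.98% and 1.68%. Among the promoters of genes called higher in SLO, 8 of 24 held the E-box and 5 of 24 the flanked form, and among the other 11 promoters 2 and 1 did. The 5 with the flanked form whose genes rose are printed here from 5′ to 3′ on the strand of the gene, with every E-box in capitals. They are LAMP1 at chr13:113296989-113297288, GAA at chr17:80101331-80101630, MCOLN1 at chr19:7522374-7522673 and CTSA at chr20:45891085-45891384 on the plus strand, and ATP6V0D1 at chr16:67481108-67481407 on the minus strand.
LAMP1: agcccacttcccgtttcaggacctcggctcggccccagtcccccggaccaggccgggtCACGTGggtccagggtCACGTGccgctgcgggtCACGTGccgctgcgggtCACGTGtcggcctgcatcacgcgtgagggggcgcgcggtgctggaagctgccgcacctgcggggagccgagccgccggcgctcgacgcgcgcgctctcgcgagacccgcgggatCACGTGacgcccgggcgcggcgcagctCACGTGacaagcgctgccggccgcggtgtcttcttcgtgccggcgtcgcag
GAA: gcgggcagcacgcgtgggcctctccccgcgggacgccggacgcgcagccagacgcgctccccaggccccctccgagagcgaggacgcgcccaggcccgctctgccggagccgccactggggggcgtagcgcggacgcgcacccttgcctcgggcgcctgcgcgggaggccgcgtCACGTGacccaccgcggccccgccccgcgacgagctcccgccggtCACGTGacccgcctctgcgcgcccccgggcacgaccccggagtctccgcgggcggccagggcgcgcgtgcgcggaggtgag
MCOLN1: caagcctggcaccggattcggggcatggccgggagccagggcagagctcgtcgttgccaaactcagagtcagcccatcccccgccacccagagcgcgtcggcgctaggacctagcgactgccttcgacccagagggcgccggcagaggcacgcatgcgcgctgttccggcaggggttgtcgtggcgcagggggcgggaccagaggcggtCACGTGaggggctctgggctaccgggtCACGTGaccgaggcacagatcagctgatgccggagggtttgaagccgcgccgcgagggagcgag
CTSA: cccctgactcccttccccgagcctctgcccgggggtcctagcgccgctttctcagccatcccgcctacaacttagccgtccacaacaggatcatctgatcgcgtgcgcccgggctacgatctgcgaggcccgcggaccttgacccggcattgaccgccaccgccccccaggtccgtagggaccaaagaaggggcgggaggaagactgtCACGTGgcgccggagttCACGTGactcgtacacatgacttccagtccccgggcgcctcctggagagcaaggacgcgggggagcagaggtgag
ATP6V0D1: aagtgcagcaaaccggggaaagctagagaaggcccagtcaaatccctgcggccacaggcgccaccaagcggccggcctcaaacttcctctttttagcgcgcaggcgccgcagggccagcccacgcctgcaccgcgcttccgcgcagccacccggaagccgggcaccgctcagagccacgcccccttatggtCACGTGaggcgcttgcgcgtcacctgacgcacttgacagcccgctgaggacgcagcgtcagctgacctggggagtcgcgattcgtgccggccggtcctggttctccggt
LAMP1 held 6 E-boxes, of which 2 were flanked, GAA and MCOLN1 held 2 flanked ones each, CTSA held 2 of which 1 was flanked, and ATP6V0D1 held 1. The sixth promoter with the flanked form was that of CLN3, which was not called at either dose, and CTSD, CTSF, NEU1 and CD63 held the E-box without the flanks. NEU1, the gene with the largest fold change, held 1 unflanked E-box, and CD63, which fell in SLO, held 1. A match is a description of these letters in this window and is not evidence of binding. Many lysosomal genes are known to share the motif, so its excess over all promoters in this list is not an independent result.

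**Figure D4:**
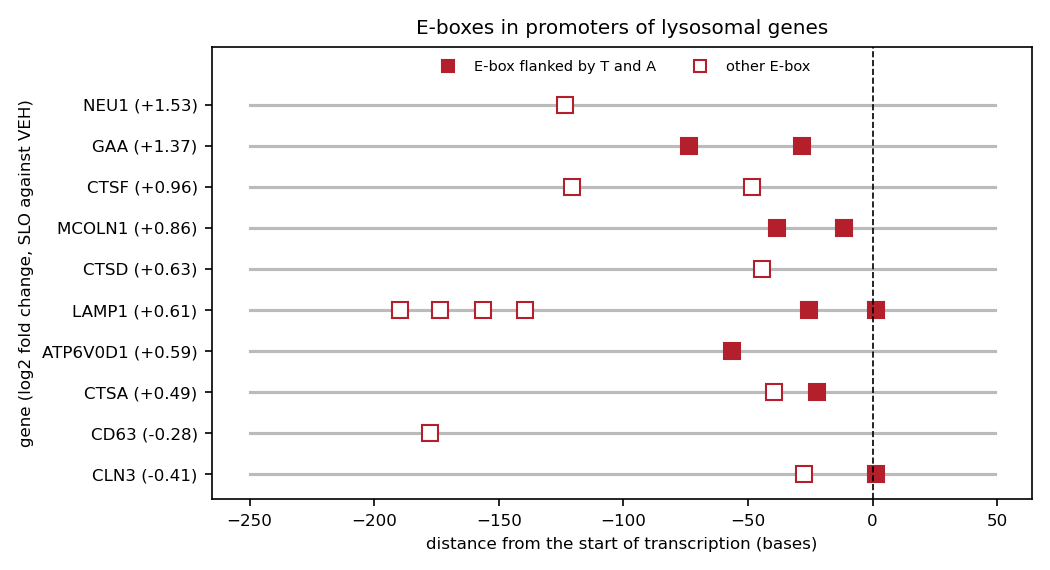
Each line is the promoter of 1 of the 10 lysosomal genes with an E-box, drawn to scale in bases from the start of transcription (dashed), with filled squares for E-boxes flanked by T and A and open squares for others, and genes ordered by log2 fold change in SLO against VEH. The flanked E-boxes begin within the 76 bases before the start, and flanked and open squares occur both in genes with large and in genes with small fold changes. Genes for which no promoter was given, among them LGMN and PSAP, are not drawn.

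The peptidases of the lysosome include the cathepsins, which cut engulfed and autophagic protein, and legumain. In SLO against VEH, 9 of the 12 tested rose, CTSC fell and CTSH and CTSK were not called, with a median log2 fold change of 0.56. In SLO 1/2, 8 rose, CTSC fell and 3 were not called. Over all tested genes, 32.9% rose and 32.1% fell in SLO, and 26.7% and 25.3% in SLO 1/2. This background applies to each role below. Legumain (LGMN), an asparaginyl endopeptidase that also activates cathepsins, measured 73.8, 68.8 and 65.7 CPM in VEH, 122, 120 and 120 in SLO 1/2, and 175, 161 and 162 in SLO. The 3 groups were separate and ordered by dose. The log2 fold change was 0.80 (SE 0.0477, edgeR adjusted p = 3.41e-14) in SLO 1/2 and 1.26 (SE 0.047, edgeR adjusted p = 2.49e-19) in SLO, with a further 0.46 between the doses (SE 0.0444, edgeR adjusted p = 1.77e-09). Cathepsin Z (CTSZ), a carboxypeptidase, measured 49.02, 54.7 and 46.5 CPM in VEH, 81.4, 80.7 and 79.2 in SLO 1/2, and 84.5, 84.6 and 85.9 in SLO. Both treated groups lay above VEH and close to each other. Its log2 fold changes were 0.69 (SE 0.0516, edgeR adjusted p = 5.35e-12) and 0.77 (SE 0.0517, edgeR adjusted p = 1.43e-13), and the difference of 0.08 between the doses was not called (SE 0.0488, edgeR adjusted p = 0.204). Cathepsin F (CTSF), a cysteine protease, measured 20.4, 18.5 and 18.3 CPM in VEH, 26.5, 28.9 and 27.6 in SLO 1/2, and 39.7, 35.6 and 36.2 in SLO. Each step was separate, with log2 fold changes of 0.54 (SE 0.0714, edgeR adjusted p = 3.1e-07) and 0.96 (SE 0.0691, edgeR adjusted p = 5.97e-13).

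The other peptidases that rose in SLO were CTSA, CTSB, CTSD, CTSL, CTSO and TPP1, with log2 fold changes from 0.16 (CTSL) to 0.97 (CTSO). The rise of CTSL, a cysteine cathepsin, was lost in either comparison with VEH without 1 of several libraries (VEH replicate 1 or SLO replicate 1 in SLO, and VEH replicate 1 or 2 or SLO 1/2 replicate 1 or 3 in SLO 1/2). The call of CTSL was also lost at both doses without a filter and by limma on unfiltered TPM, and in SLO 1/2 by DESeq2 and on the TPM scale. The rise of CTSO in SLO 1/2 was lost without VEH replicate 3 and by limma on unfiltered TPM. The genes in the rest of this paragraph were chosen after their values were seen. TPP1, the tripeptidyl peptidase deficient in a childhood ceroid lipofuscinosis, was called in SLO and not in SLO 1/2, where leaving out VEH replicate 1 gave a call, and went from 124 ± 12.3 CPM in VEH and 129 ± 3.45 in SLO 1/2 to 184 ± 2.96 in SLO (SD, n = 3). CTSB measured 240 ± 6.74, 370 ± 6.57 and 349 ± 18.02 CPM, so that it was numerically highest in SLO 1/2, without a call between the doses (log2 difference -0.08, edgeR adjusted p = 0.103, with a 95% interval from -0.165 to -0.004), and leaving out SLO replicate 1 gave a call. Cathepsin C (CTSC), which activates serine proteases of immune granules, measured 92.6, 89.7 and 102 CPM in VEH, 84.1, 83.7 and 84.2 in SLO 1/2, and 76.9, 72.8 and 77.1 in SLO. It fell at both doses, by 0.18 on the log2 scale in SLO 1/2 (edgeR adjusted p = 0.00252) and by 0.33 in SLO (edgeR adjusted p = 8.89e-07). In CTSD, 27.3% of the annotated exon bases are shared with other genes of the same strand, and in TPP1 11.6% are, by GENCODE 44, which may differ from the annotation the authors counted with.

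The glycosidases remove sugars one at a time from glycoproteins, glycolipids and glycosaminoglycans. All 10 tested rose in SLO, with log2 fold changes from 0.14 (GUSB) to 1.53 (NEU1) and a median of 0.66, and 8 of the 10 rose in SLO 1/2, where GUSB and MANBA were not called. Of the 10, 7 were also higher in SLO than in SLO 1/2. Over all tested genes the share called higher was 32.9% in SLO, 26.7% in SLO 1/2 and 20.8% between the doses. Sialidase 1 (NEU1, chr6:31857659-31862905), which removes terminal sialic acids, measured 52.9, 49.4 and 53.4 CPM in VEH, 104, 101 and 94.3 in SLO 1/2, and 155, 147 and 147 in SLO. No value of one group came near the next. Its log2 fold change was 0.94 in SLO 1/2 (SE 0.049, edgeR adjusted p = 1.48e-15) and 1.53 in SLO (SE 0.0479, edgeR adjusted p = 3.74e-21), the largest among the 50 genes in both comparisons. Acid α-glucosidase (GAA), which degrades lysosomal glycogen and whose promoter with 2 flanked E-boxes is printed above, measured 19.4, 17.9 and 15.0 CPM in VEH, 22.2, 21.6 and 25.4 in SLO 1/2, and 45.3, 45.0 and 44.1 in SLO. Most of its rise lay between the doses. Its log2 fold change was 0.41 in SLO 1/2 (SE 0.0831, edgeR adjusted p = 0.000126) and 1.37 in SLO (SE 0.0765, edgeR adjusted p = 2.11e-15), with 0.96 between the doses (SE 0.0726, edgeR adjusted p = 1.53e-11), the largest difference between doses among the 50.

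Lysosomal β-galactosidase (GLB1, chr3:32996609-33097202), the enzyme behind the senescence stain, measured 35.6, 36.2 and 36.6 CPM in VEH, 45.2, 43.2 and 52.1 in SLO 1/2, and 52.4, 54.0 and 51.3 in SLO. All treated libraries lay above all VEH libraries, and the highest SLO 1/2 library lay within the SLO range. Its log2 fold change was 0.37 in SLO 1/2 (SE 0.0615, edgeR adjusted p = 8.63e-06) and 0.54 in SLO (SE 0.0611, edgeR adjusted p = 6.98e-09). The difference of 0.17 between doses was called (SE 0.0588, edgeR adjusted p = 0.0213). That call was lost when SLO 1/2 replicate 1 or 2 or SLO replicate 2 was left out, and by limma on unfiltered TPM. The third gene by p, the α-mannosidase MAN2B1, measured 32.0, 30.9 and 31.4 CPM in VEH, 38.6, 38.4 and 39.95 in SLO 1/2, and 53.2, 46.1 and 51.1 in SLO. The groups were separate at each step, with log2 fold changes of 0.31 (SE 0.0606, edgeR adjusted p = 8.97e-05) and 0.67 (SE 0.0593, edgeR adjusted p = 4.87e-11), and 21.2% of its exon bases are shared with other genes of the same strand. The remaining members were HEXA, FUCA1, GUSB, MANBA, IDUA and NAGLU. IDUA and NAGLU, which act on heparan sulfate and were chosen here after their values were seen, were at low counts. IDUA rose from 3.37 ± 0.519 to 6.38 ± 0.615 and 8.65 ± 1.30 CPM, and its call between doses was lost without SLO replicate 2 and by limma on unfiltered TPM. NAGLU rose from 3.803 ± 0.626 to 6.40 ± 0.582 and 7.83 ± 0.0451 CPM, and 12.9% of its exon bases are shared with another gene of the same strand. The rise of GUSB in SLO, 0.14 on the log2 scale (edgeR adjusted p = 0.0334), was lost when VEH replicate 2 or 3 or any of the SLO libraries was left out. It was also lost by DESeq2, without a filter and by limma on unfiltered TPM.

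**Figure D5:**
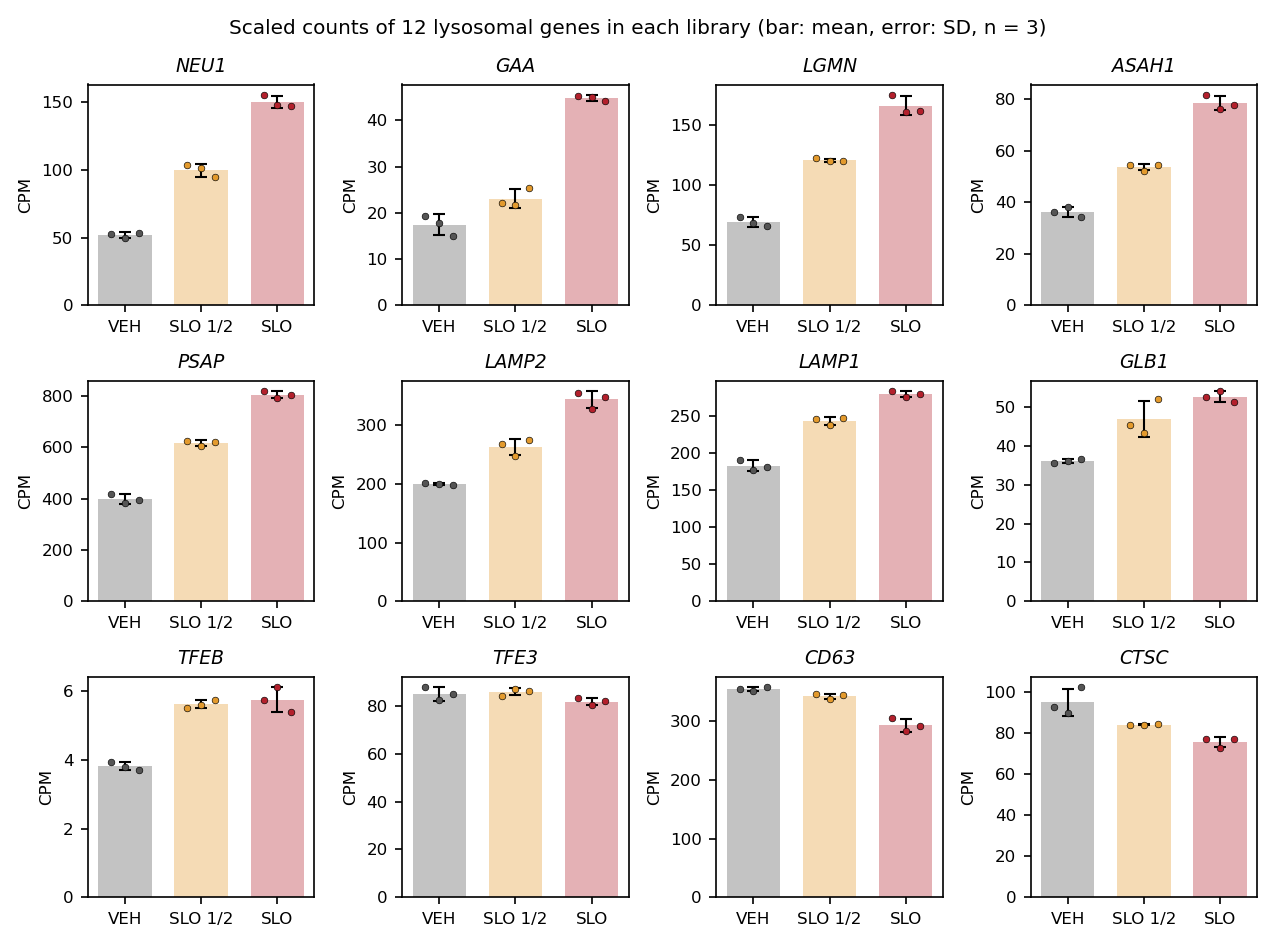
Bars are mean CPM with SD (n = 3) and points are libraries, for 12 lysosomal genes in VEH, SLO 1/2 and SLO, each panel with its own axis from 0. NEU1, GAA, LGMN, ASAH1, PSAP, LAMP2 and LAMP1 step up with dose, TFEB lies above VEH at both doses, TFE3 shows overlapping groups in both comparisons with VEH, and CD63 and CTSC are lower in SLO.

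The sulfatases cut sulfate from sugars and sulfolipids. At each dose 2 of the 4 rose, beside 32.9% of all tested genes in SLO and 26.7% in SLO 1/2. Arylsulfatase A (ARSA), the enzyme deficient in metachromatic leukodystrophy, measured 8.06, 6.04 and 6.16 CPM in VEH, 8.74, 11.6 and 8.57 in SLO 1/2, and 15.0, 15.8 and 15.1 in SLO. The groups were separate, although VEH replicate 1 lay near the lower SLO 1/2 libraries. Its log2 fold change was 0.52 in SLO 1/2 (SE 0.127, edgeR adjusted p = 0.00102) and 1.19 in SLO (SE 0.118, edgeR adjusted p = 6.3e-10). Sulfamidase (SGSH), which acts on heparan sulfate, measured 27.6, 30.3 and 30.1 CPM in VEH, 36.5, 41.3 and 39.2 in SLO 1/2, and 39.4, 41.0 and 41.4 in SLO. It rose at both doses to similar levels, by 0.41 (SE 0.0618, edgeR adjusted p = 2.27e-06) and 0.47 (SE 0.062, edgeR adjusted p = 1.41e-07), and the interval of the difference between doses ran from -0.059 to 0.174 on the log2 scale. Arylsulfatase B (ARSB), which acts on dermatan sulfate, measured 32.0, 32.3 and 30.7 CPM in VEH, 30.6, 28.5 and 31.6 in SLO 1/2, and 34.1, 31.0 and 32.7 in SLO, with overlapping groups. Its log2 fold change of 0.04 in SLO was not called (SE 0.0626, edgeR adjusted p = 0.55), with a 95% interval from -0.079 to 0.167. IDS was not called either, and 75.9% of its exon bases are shared with other genes of the same strand.

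Among the lipid hydrolases and their activator proteins, 5 of 7 rose in SLO, PPT1 fell and GALC was not called, and the same counts held in SLO 1/2. The shares of all tested genes that rose were 32.9% in SLO and 26.7% in SLO 1/2. Prosaposin (PSAP, chr10:71816298-71851251), the precursor of the saposins that present sphingolipids to their hydrolases, measured 419, 383 and 395 CPM in VEH, 625, 606 and 622 in SLO 1/2, and 820, 793 and 806 in SLO. Its level in SLO was above 2-fold that in VEH, with wide gaps between the groups. The log2 fold change was 0.63 in SLO 1/2 (SE 0.0404, edgeR adjusted p = 1.63e-13) and 1.02 in SLO (SE 0.0405, edgeR adjusted p = 1.04e-18). Acid ceramidase (ASAH1), which splits ceramide, measured 36.3, 38.2 and 34.2 CPM in VEH, 54.6, 52.3 and 54.5 in SLO 1/2, and 81.7, 76.3 and 77.9 in SLO. The groups again did not overlap, with log2 fold changes of 0.57 (SE 0.0548, edgeR adjusted p = 7.04e-10) and 1.12 (SE 0.053, edgeR adjusted p = 4.77e-17). Acid sphingomyelinase (SMPD1), which makes ceramide from sphingomyelin, measured 28.6, 30.2 and 30.2 CPM in VEH, 36.6, 36.9 and 35.3 in SLO 1/2, and 52.5, 46.4 and 45.9 in SLO. It rose in each step, with log2 fold changes of 0.29 (SE 0.0626, edgeR adjusted p = 0.000305) and 0.70 (SE 0.0609, edgeR adjusted p = 3.47e-11).

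LIPA, the acid lipase for cholesteryl esters, and GM2A, the GM2 ganglioside activator, rose by 0.19 and 0.29 in SLO on the log2 scale. The call of LIPA in SLO 1/2 was lost without SLO 1/2 replicate 1 or 3 and on the TPM scale. Palmitoyl-protein thioesterase 1 (PPT1), which removes fatty acids from proteins and was chosen after its values were seen, measured 148 to 154 CPM in VEH, 136, 127 and 134 in SLO 1/2, and 125, 122 and 122 in SLO. It went against the direction of the rest of its group, falling by 0.18 in SLO 1/2 (edgeR adjusted p = 0.00035) and by 0.29 in SLO (edgeR adjusted p = 3.98e-07) with no overlap between groups. GALC, which degrades galactosylceramide, had 4 to 20 reads in each library, too few to show a difference of the usual size here, with a 95% interval from -0.585 to 0.946 in SLO.

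Progranulin (GRN), a secreted and lysosomal protein that is abundant in microglia and cleaved into granulins there, measured 153, 142 and 138 CPM in VEH, 214, 210 and 213 in SLO 1/2, and 275, 255 and 262 in SLO. The 3 groups were separate. It rose by 0.56 on the log2 scale in SLO 1/2 (SE 0.0433, edgeR adjusted p = 1.21e-11) and by 0.87 in SLO (SE 0.0431, edgeR adjusted p = 1.49e-16). The acid phosphatase ACP2, the other luminal protein, measured 20.1, 20.5 and 21.2 CPM in VEH, 24.7, 23.8 and 26.6 in SLO 1/2, and 23.4, 22.7 and 22.6 in SLO. All treated libraries lay above VEH, and those of SLO 1/2 lay above those of SLO. Its log2 fold change of 0.28 in SLO 1/2 was called (SE 0.0687, edgeR adjusted p = 0.00113), while that of 0.15 in SLO was not (SE 0.0703, edgeR adjusted p = 0.0616) and passed the threshold under 4 of the alternatives, and the difference between doses was not called (edgeR adjusted p = 0.136).

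Of the 7 membrane proteins, 4 rose in SLO, CD63 fell and CTNS and CLN3 were not called. In SLO 1/2 the same 4 rose and 3 were not called. Higher calls were made for 32.9% of all tested genes in SLO and 26.7% in SLO 1/2. LAMP1 and LAMP2, the heavily glycosylated proteins that line the lysosomal membrane, both rose in steps. LAMP1 measured 191, 177 and 182 CPM in VEH, 246, 238 and 247 in SLO 1/2, and 284, 276 and 280 in SLO, and LAMP2 202, 201 and 199, 268, 248.7 and 275, and 356, 328 and 349 CPM. In neither gene did any of the groups overlap. LAMP1 rose by 0.41 (SE 0.0401, edgeR adjusted p = 1.07e-09) and 0.61 (SE 0.0401, edgeR adjusted p = 7.74e-14) on the log2 scale. LAMP2, whose isoform LAMP2A takes up proteins in chaperone-mediated autophagy, rose by 0.39 in SLO 1/2 (SE 0.043, edgeR adjusted p = 8.66e-09) and by 0.78 in SLO (SE 0.0428, edgeR adjusted p = 1.55e-15). SCARB2 (LIMP-2), an abundant protein of the lysosomal membrane, measured 140, 137 and 130 CPM in VEH, 149, 146 and 158 in SLO 1/2, and 187, 184 and 199 in SLO. The groups were separate but close in the lower step, at 0.16 in SLO 1/2 (SE 0.0442, edgeR adjusted p = 0.00396) and 0.49 in SLO (SE 0.0439, edgeR adjusted p = 7.15e-11). The call of SCARB2 in SLO 1/2 was lost without SLO 1/2 replicate 3 (edgeR adjusted p = 0.0506) and on the TPM scale.

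MCOLN1 (TRPML1), the calcium channel of the lysosomal membrane whose promoter with 2 flanked E-boxes is printed above, was the fourth to rise. It was outside the rule for named genes, and measured 8.85 ± 0.793, 13.1 ± 1.28 and 16.1 ± 0.442 CPM in VEH, SLO 1/2 and SLO (SD, n = 3), and its call between the doses was lost without SLO 1/2 replicate 1. The tetraspanin CD63, a protein of late endosomes and exosomes and the first of these genes in VEH by TPM though below PSAP by CPM, was also named after its values were seen, at 355, 351 and 358 CPM in VEH, 346, 338 and 344 in SLO 1/2, and 306, 283 and 292 in SLO. It fell by 0.28 on the log2 scale in SLO (SE 0.0391, edgeR adjusted p = 4.68e-07), and in SLO 1/2 its libraries lay below VEH without a call (edgeR adjusted p = 0.287). CTNS, the cystine exporter, was at 15.7 ± 0.282, 17.7 ± 0.846 and 17.3 ± 0.62 CPM, with treated libraries above VEH but no call at either dose. Its 95% interval in SLO 1/2 ran from 0.019 to 0.322, and it was called at both doses when scaled by library size alone and in SLO 1/2 with at least 10 counts in every library. CLN3 had 6 to 14 reads in each library and a 95% interval from -1.135 to 0.32 in SLO, and 25.3% of its exon bases are shared with another gene of the same strand.

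The V-ATPase has a membrane sector, V0, through which protons pass, and a cytosolic sector, V1, that splits ATP. Of its 6 members chosen here, ATP6V0A1, ATP6V0D1 and the accessory subunit ATP6AP1 rose at both doses, and ATP6V1B2 and ATP6V1H were called at neither. Over all tested genes, 22.2% were higher at both doses and 27.4% were called at neither. ATP6V0A1 measured 51.2, 49.2 and 47.6 CPM in VEH, 64.7, 62.3 and 64.5 in SLO 1/2, and 75.6, 84.4 and 78.3 in SLO. Its groups were separate at each step, with log2 fold changes of 0.37 (SE 0.0519, edgeR adjusted p = 6.91e-07) and 0.69 (SE 0.0511, edgeR adjusted p = 1.25e-12). ATP6AP1 measured 65.1, 68.8 and 65.7 CPM in VEH, 89.9, 87.0 and 88.1 in SLO 1/2, and 108, 106 and 98.5 in SLO. It also rose without overlap, by 0.41 (SE 0.0468, edgeR adjusted p = 2.02e-08) and 0.65 (SE 0.0464, edgeR adjusted p = 5.37e-13). ATP6V0D1, whose promoter is printed above, measured 39.05, 39.98 and 41.3 CPM in VEH, 53.8, 53.5 and 57.6 in SLO 1/2, and 63.8, 58.0 and 59.9 in SLO. Its SLO 1/2 and SLO libraries nearly touched, and its rises were 0.45 (SE 0.0544, edgeR adjusted p = 5.38e-08) and 0.59 (SE 0.0542, edgeR adjusted p = 1.04e-10). The call of ATP6V0D1 between the doses (edgeR adjusted p = 0.0288) was lost without SLO 1/2 replicate 1 or 2 or SLO replicate 1 or 3. It was also lost by DESeq2, without a filter and by limma on unfiltered TPM.

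The 3 members of V1 showed small differences. ATP6V1A, the catalytic subunit, was lower in SLO 1/2 by 0.11 on the log2 scale (edgeR adjusted p = 0.0399), a call lost without VEH replicate 3 or any SLO 1/2 library. That call was also lost by library size alone, with at least 10 counts in every library, with only the 2 groups compared and by limma on unfiltered TPM. ATP6V1A was not called in SLO, with a 95% interval from -0.041 to 0.133, though library size alone gave a call. ATP6V1B2 and ATP6V1H had 95% intervals from -0.069 to 0.091 and from -0.118 to 0.084 in SLO. Adding the other subunits from the lists below and splitting by sector, a split made after the values were seen, all 8 tested V0 subunits and both accessory subunits rose at both doses, with median log2 fold changes in SLO of 0.58 and 0.55. Of all tested genes, 22.2% were called higher at both doses. Of the 11 tested V1 subunits, 5 rose in SLO (ATP6V1D, ATP6V1E1, ATP6V1F, ATP6V1G1 and ATP6V1G2), ATP6V1C1 and ATP6V1E2 fell and 4 were not called, with a median of 0.05, beside 32.9% of all tested genes higher and 32.1% lower. The difference between the sectors was not tested.

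TFEB (chr6:41683978-41736259) and TFE3 (chrX:49028726-49043410) encode the factors that drive lysosomal genes, and these values are of their mRNA and not of the location of the proteins, through which both are known to be controlled. TFEB measured 3.94, 3.81 and 3.71 CPM in VEH, 5.51, 5.60 and 5.75 in SLO 1/2, and 5.75, 6.12 and 5.39 in SLO. Both treated groups lay above VEH and overlapped each other. It rose by 0.56 on the log2 scale in SLO 1/2 (SE 0.135, edgeR adjusted p = 0.000943) and by 0.60 in SLO (SE 0.136, edgeR adjusted p = 0.000359), and the interval of the difference between doses ran from -0.209 to 0.283. TFE3 measured 87.8, 82.2 and 84.7 CPM in VEH, 84.2, 87.1 and 86.3 in SLO 1/2, and 83.4, 80.2 and 81.8 in SLO. Its VEH libraries overlapped with both treated groups and no call was made, at log2 fold changes of 0.02 in SLO 1/2 and -0.05 in SLO (SE 0.0443, edgeR adjusted p = 0.286), with signs that changed with the scaling and a 95% interval from -0.141 to 0.032 in SLO. Per length, TFE3 was the more abundant of the pair in VEH, at 94.9 ± 2.63 TPM against 2.67 TPM for TFEB.

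Further genes of the pathway were described with 5 lists from general knowledge, holding 106 genes that are not among the 51, of which 91 were tested. In SLO against VEH, 54 of the 91 rose and 18 fell, with a median log2 fold change of 0.24, beside the background of 32.9% and 32.1% given above, and in SLO 1/2 46 rose and 13 fell with a median of 0.13, beside 26.7% and 25.3%. Scaled by library size alone, 58 rose and 8 fell in SLO. Of the other hydrolases and cofactors, 14 of 17 rose in SLO and none fell, and 12 rose in SLO 1/2. NPC2, the luminal cholesterol carrier, measured 37.5, 38.6 and 35.9 CPM in VEH, 58.0, 58.2 and 58.0 in SLO 1/2, and 83.8, 82.2 and 81.3 in SLO, with little spread inside any group. It rose by 0.64 (SE 0.0506, edgeR adjusted p = 1.65e-11) and 1.14 (SE 0.0491, edgeR adjusted p = 5.56e-18) on the log2 scale. Cathepsin V (CTSV), a cysteine protease close to cathepsin L, measured 41.3, 45.4 and 43.5 CPM in VEH, 54.6, 52.0 and 53.1 in SLO 1/2, and 80.3, 72.5 and 80.8 in SLO. The groups were separate, with log2 fold changes of 0.30 (SE 0.0553, edgeR adjusted p = 5.03e-05) and 0.84 (SE 0.0535, edgeR adjusted p = 3.96e-14), and 0.55 between the doses (SE 0.0519, edgeR adjusted p = 1.23e-09).

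Of the other membrane proteins, 11 of 22 rose and 5 fell in SLO (LAPTM4B, SLC17A5, CD164, TMEM106B and CLCN6). These shares are 50% and 22.7%, beside 32.9% and 32.1% of all tested genes. OSTM1, the partner of the chloride transporter CLCN7, measured 34.2, 36.2 and 33.1 CPM in VEH, 53.1, 51.7 and 51.5 in SLO 1/2, and 77.7, 72.0 and 78.7 in SLO. HGSNAT, which acetylates heparan sulfate across the membrane, measured 39.1, 37.4 and 32.5, 45.9, 46.3 and 49.8, and 72.0, 72.3 and 76.7 CPM in the same order. Both stepped up without overlap, by 1.14 (SE 0.0535, edgeR adjusted p = 3.92e-17) and 1.02 (SE 0.0594, edgeR adjusted p = 5.32e-15) in SLO. Of the other proton pump subunits, 12 of 15 rose and 2 fell in SLO, led by p by ATP6V0E1, at 81.8, 85.2 and 94.8, 115, 117 and 119, and 143, 132 and 135 CPM, and ATP6V1G1, at 55.2, 52.5 and 49.98, 69.2, 68.8 and 68.3, and 79.4, 76.2 and 80.4 CPM. They rose by 0.64 (SE 0.0486, edgeR adjusted p = 1.76e-12) and 0.58 (SE 0.0488, edgeR adjusted p = 1.6e-11). ATP6V0C was not tested, at 0.344 TPM in VEH, and 76.3% of its exon bases are shared with other genes of the same strand.

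The delivery list holds the mannose 6-phosphate and sortilin route with its adaptors and the retromer. In SLO 1/2, 7 of 15 were higher and 3 lower (46.7% and 20%, beside 26.7% and 25.3% of all tested genes). In SLO, 9 were higher and 6 lower (60% and 40%, beside 32.9% and 32.1%), with a median log2 fold change of 0.14. The receptors SORT1, IGF2R and M6PR, the phosphotransferase subunits GNPTAB and GNPTG, the adaptors GGA1, GGA2 and AP1B1 and the retromer subunit VPS29 rose. The adaptors GGA3, AP1G1 and AP1M1, the retromer subunits VPS26A and VPS35 and the uncovering enzyme NAGPA fell. Sortilin (SORT1), the receptor for prosaposin and progranulin, measured 177, 170 and 174 CPM in VEH, 211, 189 and 198 in SLO 1/2, and 267, 258 and 290 in SLO. It rose by 0.20 in SLO 1/2 (SE 0.0461, edgeR adjusted p = 0.000583) and by 0.64 in SLO (SE 0.0457, edgeR adjusted p = 4.95e-13). The call of SORT1 in SLO 1/2 did not hold under all 19 alternatives. IGF2R, the large mannose 6-phosphate receptor, measured 187, 199 and 185 CPM in VEH, 212, 205 and 199 in SLO 1/2, and 278, 273 and 270 in SLO. It rose by 0.52 in SLO (SE 0.0406, edgeR adjusted p = 3.22e-12), with the highest VEH and the lowest SLO 1/2 library nearly level, and its call at 0.11 in SLO 1/2 (edgeR adjusted p = 0.0308) was lost without VEH replicate 1 or 3 or SLO 1/2 replicate 1 or 2, by DESeq2 and on the TPM scale.

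In the list of TFEB regulation at the lysosome, which holds mTORC1, the Rag and Ragulator proteins, folliculin and calcineurin, 8 of 22 rose and 5 fell in SLO (36.4% and 22.7%, beside 32.9% and 32.1% of all tested genes), with a median log2 fold change of -0.02. In SLO 1/2, 4 rose and 6 fell (18.2% and 27.3%, beside 26.7% and 25.3%), with a median of -0.01. MITF, a factor of the same family as TFEB, measured 21.8, 21.1 and 20.7 CPM in VEH, 28.0, 28.8 and 29.1 in SLO 1/2, and 38.1, 38.97 and 41.0 in SLO. FNIP2, a partner of folliculin, measured 29.8, 28.4 and 28.2, 37.0, 36.7 and 36.2, and 49.2, 49.6 and 51.9 CPM. Both rose in separate steps, by 0.89 (SE 0.0624, edgeR adjusted p = 3.35e-13) and 0.80 (SE 0.056, edgeR adjusted p = 3.01e-13) in SLO. The others that rose in SLO were RRAGC, LAMTOR1, LAMTOR2, FLCN, FNIP1 and the calcineurin subunit PPP3R1, and the 5 that fell were RPTOR, MLST8, RRAGA and the calcineurin subunits PPP3CA and PPP3CB, so that Rag proteins and calcineurin subunits moved in both directions, and MTOR was not called. PPP3CA, named after its values were seen, fell by 0.56 on the log2 scale (SE 0.0422, edgeR adjusted p = 1.6e-12), from 137, 135 and 141 CPM in VEH to 95.5, 89.7 and 95.02 in SLO.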

How the data were processed

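Polyadenylated RNA of 9 HMC3 libraries, 3 each of VEH, SLO 1/2 and SLO, was sequenced. Per the labels and the study's methods, the authors trimmed reads with Trimmomatic 0.38 and aligned them to GRCh38 with STAR 2.7.1a (versions also in the submitters' processing notes); the annotation release is not given in the sources used here. The deposited counts are STAR's raw stranded counts per gene, which leave out reads that overlap 2 genes, and the deposited TPM values are transcript levels scaled by the authors for length and depth. Unmapped reads, and the lines for multimapping (7.16 to 8.52%), no feature (5.54 to 8.38%) and ambiguous reads (3.03 to 3.26%), were kept out of library sizes.

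Counts were filtered (filterByExpr), scaled by TMM and fitted with edgeR 4.0.16 in R 4.3.3 on all 9 libraries with group as the only term. P-values were adjusted by Benjamini-Hochberg over 14727 genes and called below 0.05. CPM are TMM-scaled, with a prior count of 2 only in log2 CPM. Intervals (95%) were taken from the normal distribution of each estimate and its SE. Before the comparison, the fit was run on simulated counts in which few genes changed and every gene was given the same spread. These settings differ from the data, so that run does not measure error rates here. The 51 genes and all lists were chosen with earlier results of these data known. Named genes were, per role, the 3 ranked first by p for SLO over VEH, LAMP1, LAMP2, GLB1, GRN, TFEB and TFE3, and 2 per pathway list; others are said to be chosen later. Alternatives were DESeq2 1.42.0, other scalings and filters, limma 3.58.1 on log2(TPM + 1) and log2(TPM + 0.1), a replicate block and leaving out each library. Exon overlap was read from GENCODE 44 and promoters from RefSeq tables. No set test was made. Some genes of the pathway and marker lists are not reported here and entered no list count.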

Additional observations from a re-analysis of the deposited data

How the results depend on the processing

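The counts of the 51 genes called higher and lower and their median were recomputed for each comparison. So were the counts of pathway genes called higher and lower at each dose against VEH. This was done under other settings and without each library in turn, 19 alternatives in all. Counts and medians by role, single list, pump sector, fold size, overlap or dose pattern were not recomputed. Of 247 such values, 230 stayed within 1.5 times the reported count or within the spread between libraries of the reported median. No gene of the 51 that was called in a comparison was called in the opposite direction under any of these settings. Of 1254 values of single named genes, 1229 kept their direction and their side of the threshold, 15 lost the call, 4 gained it and 6 changed sign.

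Scaled by library size alone, the median log2 fold change moved to 0.62 in SLO and 0.36 in SLO 1/2, and the pathway genes called lower in SLO dropped to 8. By limma on TPM, the median in SLO 1/2 was 0.25 with a pseudocount of 1, 0.27 with 0.1 and 0.25 unfiltered, and that between the doses was 0.20 in each, where 1 gene, CD63, was lower between the doses in each and 10 pathway genes were lower in SLO unfiltered. With at least 10 counts in every library, the median between the doses was 0.19. The log2 fold change of TFE3 changed sign, to 0.020 in SLO by library size alone, and that of TFE3, SLO 1/2 against VEH, to -0.000116 without a filter, -0.025 by limma on TPM in each of 3 forms and -0.0090 without VEH replicate 2. The cause was not tested. Without 1 library at a time, the median ran from 0.52 to 0.57 in SLO, from 0.29 to 0.34 in SLO 1/2 (highest without VEH replicate 1) and from 0.15 to 0.19 between the doses (highest without SLO 1/2 replicate 3), the log2 fold change of TFE3 in SLO 1/2 from -0.0090 to 0.037, pathway genes lower in SLO from 13 to 18, and the 51 genes lower between the doses from 1 (without SLO replicate 2) to 4.

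The groups share replicate numbers. Deviations from the group means correlated at 0.0028 to 0.087 in the 9 pairs of same-numbered libraries and at -0.062 to 0.037 in the 18 other pairs. The same-numbered pairs thus reached higher values, but none was over 0.1, and the numbers were not taken to pair the libraries. A weak effect shared by libraries of the same number was not tested. With the replicate block, the 51 genes again gave 35 higher and 3 lower in SLO with a median of 0.55, all member calls in the 3 comparisons were kept, and calls over all genes went from 9565 to 9622 in SLO, 7663 to 7749 in SLO 1/2 and 6056 to 6162 between the doses. Depth limits the genes under 10 CPM in VEH, of which 10 were tested with a median SE of 0.149, beside 0.0523 for the other 40.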

Other observations

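Values of 3 genes outside the rule for named genes, all chosen after their values were seen, stood apart from their lists. SIAE, a sialate esterase of the lysosome, measured 2.22, 2.04 and 3.24 CPM in VEH, 5.39, 6.00 and 5.57 in SLO 1/2, and 9.56, 10.2 and 10.8 in SLO, with a log2 fold change of 2.00 in SLO (SE 0.147, edgeR adjusted p = 1e-12). ATP6V0A4, a proton pump subunit best known from kidney, measured 1.46, 0.919 and 1.72 CPM in VEH, 4.14, 3.49 and 4.19 in SLO 1/2, and 4.12, 4.77 and 5.25 in SLO, with a log2 fold change of 1.75 (SE 0.201, edgeR adjusted p = 1.1e-08). TMEM106B, a lysosomal membrane protein, fell more in the lower dose, from 49.02, 46.3 and 46.9 CPM in VEH to 33.3, 30.1 and 36.3 in SLO 1/2 and 41.0, 36.6 and 44.3 in SLO.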
